A study of Homo sapiens with 18 samples.

Results

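Chromosome 19 carries more genes per unit of length than other human chromosomes, together with clusters of zinc-finger genes that are packed in repressive chromatin. The regions described here are the MYC-bound sites on chromosome 19 that lie outside windows set for those clusters, and chromosome 18, known as gene-poor, serves as the comparison. Whether the windows cover every such cluster was not checked. A peak was taken as a member when its summit fell outside 5 windows of the hg19 build: 19800000 to 24400000, 36500000 to 38500000, 44200000 to 45000000, 52300000 to 54000000 and 56000000 to 59000000. In the 9 peak lists 6952 of 150870 peaks on chromosomes 1 to 22 and X met this rule. Peaks of different lists that shared 1 bp or more were joined, which gave 1815 of 43222 regions, against 855 on chromosome 18 and 190 inside the windows. The rule itself uses a peak's position and no signal value.

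The cells were MCF10A, an immortalised, non-tumour human breast epithelial line. All groups carried the same ectopic MYC plasmid (pBABE-hygro-MYC) and a mutant PI3K plasmid (pMN-IRES-GFP-PI3KH1047R), and all received doxycycline at 2 µg/mL for 72 h. Doxycycline induced hairpin 1 against G9a (pLKO-tetON-puro-shG9a 1, called shG9a_1), hairpin 4 (pLKO-tetON-puro-shG9a 4, called shG9a_4) or a scramble hairpin (pLKO-tetON-puro-shSCR, called shSCR). Each group had 3 MYC chromatin immunoprecipitation (ChIP-seq) libraries, biological replicates per the series design, made with the antibody N262. The 9 DNA inputs have no peak list here, and the level of G9a itself is not measured by these files. MYC was expressed from a vector, so the binding described is that of cells with added MYC.

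MYC is a transcription factor that binds DNA as a pair with MAX, best at the E-box sequence CACGTG, and sits mostly at promoters and enhancers that are already open and active. G9a, also called EHMT2, is an enzyme that places methyl groups on histone H3 at lysine 9, a mark of silent chromatin. The series design names the question as the effect of G9a knockdown on where MYC binds. No hg19 sequence or annotation was used here, so regions are given by position, and their bases and nearest genes are not given.

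One library stood apart before any comparison. The list of shG9a_1 replicate 1 held 113 peaks on chromosomes 1 to 22 and X, 6 of them members, while the other 8 lists held 11168 to 34738. Its median peak width was 79 bp, against 223 to 275 bp in the others. Results that rest on it are given with and without it. ChIP depth, recovered from the peak values and set against the shSCR mean, was 0.836 and 1.08 in shG9a_1 replicates 2 and 3. It was 1.90, 1.06 and 2.63 in shG9a_4 replicates 1 to 3 and 1.04, 1.04 and 0.926 in shSCR replicates 1 to 3. For shG9a_1 replicate 1 the value was 2.34, but its shortest peak, which sets the scale, was 51 bp, against 130 to 157 bp elsewhere. The series design calls the replicates biological but does not say what was repeated, so p-values measure the spread between these libraries.

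MYC sites were packed more closely on chromosome 19 than on chromosome 18 in every library. The lists held 12.3 and 13.8 member peaks per Mb in shG9a_1 replicates 2 and 3, where chromosome 18 had 2.57 and 2.696 per Mb. In shG9a_4 they held 11.1, 17.97 and 13.9 per Mb, where chromosome 18 had 2.54, 3.94 and 2.696. In shSCR they held 26.8, 31.7 and 21.0 per Mb, where chromosome 18 had 7.52, 8.77 and 4.65. The short list of shG9a_1 replicate 1 had 0.128 and 0.0257 per Mb on chromosomes 19 and 18. The lowest ratio of the chromosomes was 3.56, in shSCR replicate 1, and the highest 5.17, in shG9a_4 replicate 3. The log2 ratio averaged 2.17 ± 0.20 (SD, n = 9 libraries), and it was above 0 in 9 of 9. By a two-sided exact sign-flip permutation test over libraries p was 0.0039, the smallest possible, and 0.0156 after Benjamini-Hochberg adjustment over 4 comparisons of the chromosomes. Density was taken from the first to the last summit, 46.7 Mb of chromosome 19 without the windows and 77.9 Mb of chromosome 18, with assembly gaps not subtracted.

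**Figure D1:**
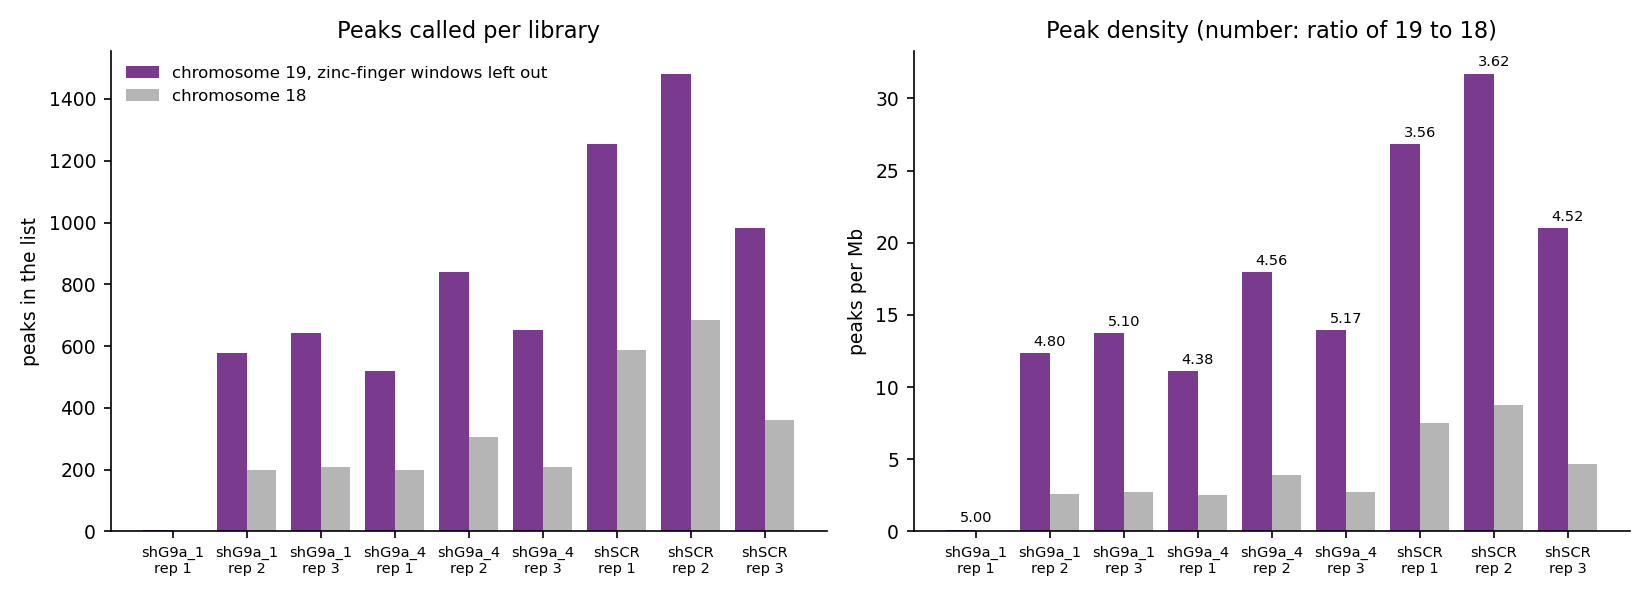
Peaks per library (left) and peaks per Mb (right) on chromosome 19 without the zinc-finger windows (purple) and on chromosome 18 (grey), for 3 libraries each of shG9a_1, shG9a_4 and shSCR. Numbers over the right-hand bars are the density ratios, from 3.56 to 5.17, and the bars of shG9a_1 replicate 1 (6 and 2 peaks) are too low to see.

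Among the 23 chromosomes, chromosome 19 ranked first in merged regions per Mb, with 38.8 against 10.98 on chromosome 18, which ranked 20th. Chromosome 22 followed with 30.4 per Mb and chromosome 17 with 29.6, and the X chromosome was lowest with 5.68. Per gene the order of the 2 chromosomes was reversed. The RefSeq table (GRCh38.p14, used for gene names and their chromosomes only) lists 1451 protein-coding genes on all of chromosome 19 and 270 on chromosome 18. With the windows included, there were 1.38 regions per coding gene on chromosome 19, against 3.17 on chromosome 18 and 2.16 over all 23 chromosomes. For regions called in all 3 shSCR lists the values were 0.527, 0.922 and 0.711 per coding gene. These are descriptions of 1 set of regions and carry no test.

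RefSeq promoter windows give the frequency of the E-box apart from these peaks. CACGTG, which reads the same on both strands, lay in 94 of 1185 promoter windows of coding genes on chromosome 19 (7.93%). It lay in 15 of 234 on chromosome 18 (6.41%) and in 8.87% of 15812 on all chromosomes. Without genes whose symbol starts with ZNF, the chromosome 19 share was 8.80% of 966. Each window ran from 250 bases before to 50 after a gene's start in GRCh38.p14. These windows were not placed on the hg19 peaks, so a match says nothing of binding.

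Members were not spread evenly. In the 47 bins of 1 Mb that lay mostly outside the windows, the median was 37 regions, 17 bins held over 50 and 4 held none. Of 79 bins on chromosome 18, none held over 50 and the highest held 39, with a median of 7. The fullest bin on chromosome 19 was 1000001 to 2000000, with 126 regions. Next came 2000001 to 3000000 with 88, 18000001 to 19000000 with 69, 45000001 to 46000000 with 67, and 4000001 to 5000000 with 66. The first 1000000 bases also held 66. No member lay between the first window and 27732147, a stretch that holds the centromere, and the longest stretch without a member elsewhere outside the windows ran from 30433952 to 32836399.

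Before the first window there were 1063 regions, 54.5 per Mb, and after it 752, 31.5 per Mb. The median fold in shSCR was 9.29 before and 9.34 after it, over 407 and 285 regions found in every shSCR list. Of those, 8.11% and 5.26% were called in no shG9a list, and 40.05% and 41.4% were called in at least 5 of the 6, where the shares over all chromosomes were 9.49% and 36.9%. Neighbouring regions on chromosome 19 were separated by a median of 6268 bp, against 18745 bp on chromosome 18. Another region lay within 10 kb of 78.4% of members (1423 of 1815), against 62.7% on chromosome 18 (536 of 855). Within 1 kb the shares were 48.4% and 39.4%. Among regions found in every shSCR list, 53.3% and 37.3% had such a neighbour within 10 kb, and the shares within 1 kb were alike, 22.8% and 23.3%.

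Regions on both sides of some window edges show where the rule divides them. At 36500000 the nearest member, 36485799 to 36486613, was called in 8 libraries with a highest fold of 10.2, and the nearest region left out, 36500087 to 36500507, in 7 with 9.35. At 45000000 the nearest member, 45004114 to 45004823, was called in 7 libraries with a highest fold of 10.0. The nearest region left out there, 44905606 to 44905914, was called in 1 with 6.72. At 59000000 the nearest member, 59010295 to 59010862, was called in 8 libraries with a highest fold of 12.0, and the nearest region left out, 58987288 to 58988096, in 4 with 8.61. At 56000000 both were called in 1 library, with folds of 5.84 outside and 4.70 inside, and no member overlapped a region inside a window. At 24400000 the nearest member was 3331922 bp away.

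Peaks on chromosome 19 had slightly higher median folds and widths than those on chromosome 18 within the same list, except in shG9a_1 replicate 1. The fold is the authors' enrichment of ChIP signal over local background at the summit, and it compares peaks within a list. It is not a height. Median local background was lower on chromosome 19 in shG9a_1 replicates 2 and 3, shG9a_4 replicate 3 and shSCR replicate 2. It was higher in shG9a_1 replicate 1. In shG9a_4 replicates 1 and 2 and shSCR replicates 1 and 3 it was the same on both chromosomes. The part of background in the fold difference was not tested. Median member folds were 6.57 and 6.79 in shG9a_1 replicates 2 and 3, where chromosome 18 had 6.48 and 6.41. They were 6.63, 7.14 and 6.77 in shG9a_4, where chromosome 18 had 6.38, 6.97 and 6.47. They were 6.72, 6.94 and 7.10 in shSCR, where chromosome 18 had 6.70, 6.51 and 6.78. In shG9a_1 replicate 1 the medians were 5.72 and 8.63, from 6 and 2 peaks. With that library, the difference in median log2 fold averaged −0.02 ± 0.22 (SD, n = 9; higher in 8 of 9; exact sign-flip permutation p = 1.0, smallest possible 0.0039). Without it the difference was 0.05 on the log2 scale, higher in 8 of 8 libraries, with exact permutation p = 0.0078, again the smallest possible.

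Median member widths were 242.5 and 248 bp in shG9a_1 replicates 2 and 3, where chromosome 18 had 215.5 and 237.5 bp. They were 235, 260.5 and 234 bp in shG9a_4, where chromosome 18 had 228, 244 and 218.5 bp. They were 257, 304 and 258 bp in shSCR, where chromosome 18 had 224, 264 and 242.5 bp. In shG9a_1 replicate 1 they were 74 and 108 bp. The mean difference was 14.6 ± 21.2 bp (SD, n = 9; wider in 8 of 9), and the exact sign-flip permutation p was 0.0898, or 0.12 after adjustment over the same 4 comparisons. Without shG9a_1 replicate 1 it was 20.6 bp, wider in 8 of 8 libraries (exact permutation p = 0.0078). Over the 3 shSCR lists, chromosome 19 ranked first of 23 in median peak width, 274 bp, and chromosome 18 ranked 22nd with 247 bp.

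Very wide peaks differed between the chromosomes in no single direction. Peaks of 1 kb or more made up 0.174% and 0.622% of members in shG9a_1 replicates 2 and 3, where chromosome 18 had 0.5% and 0%. In shG9a_4 replicates 1 to 3 they made up 0.192%, 1.19% and 0.461%, where chromosome 18 had 0%, 0.977% and 0%. In shSCR replicates 1 to 3 they made up 0.958%, 2.43% and 1.53%, where chromosome 18 had 1.02%, 3.51% and 1.10%. These shares rest on 1 to 36 peaks per list on chromosome 19 and 0 to 24 on chromosome 18. The list of shG9a_1 replicate 1 had no such peak on either. Among regions called in all 3 shSCR lists, merged widths of 1 kb or more were found in 10.8% of 692 on chromosome 19, 14.5% of 249 on chromosome 18 and 12.6% of 14209 overall. The widest member, 2474539 to 2476506, spanned 1968 bp from 17 merged peaks in 8 libraries. Its fold was 4.95 and 5.88 in shG9a_1 replicates 2 and 3, 8.66, 8.80 and 6.03 in shG9a_4, and 12.8, 10.5 and 8.56 in shSCR. It had a shSCR strength at the 77.8 percentile. Strength is the mean percentile, by q-value, of the best peak in the 3 shSCR lists. The other regions among the 5 widest were 1863386 to 1865091, 54973407 to 54975018, 50093410 to 50095004 and 1248373 to 1249926, with widths of 1554 to 1706 bp.

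Fewer member peaks were called with either G9a hairpin than with the scramble hairpin. The lists held 6, 576 and 643 members in shG9a_1, 520, 840 and 651 in shG9a_4, and 1253, 1482 and 981 in shSCR. Every shG9a list was below the lowest shSCR list. The mean was 539 ± 283 (SD, n = 6) with the hairpins and 1239 ± 251 (SD, n = 3) in shSCR, a mean 56.5% lower. The two-sided exact permutation p was 0.0238, the smallest that 84 splits allow, and 0.114 after Benjamini-Hochberg adjustment over 8 comparisons between hairpins, so it did not pass the adjusted threshold. When libraries were permuted only within replicate numbers, the exact permutation p was 0.0741, the smallest possible there. Without shG9a_1 replicate 1 the shG9a mean was 646 ± 121 (SD, n = 5), and the exact permutation p was 0.0357. Leaving out shSCR replicate 1, 2 or 3 gave differences of −692, −578 and −828 peaks, and the exact permutation p was 0.0714 in all 3 cases, which is as low as 2 shSCR libraries allow.

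Each hairpin alone could not give a p under 0.1. With shG9a_1 the mean was 408 ± 350 members (SD, n = 3), or 33.0% of that in shSCR. It was 609.5 ± 47.4 (SD, n = 2) when replicate 1 was left out. With shG9a_4 it was 670 ± 161 (SD, n = 3), or 54.1% of that in shSCR. Both comparisons had an exact permutation p of 0.1. The difference of shG9a_1 from shG9a_4 was −262 members (exact permutation p = 0.4), and −60.8 without shG9a_1 replicate 1. The length covered by members was 0.595, 163 and 187 kb in shG9a_1, 138, 263 and 178 kb in shG9a_4, and 392, 557 and 311 kb in shSCR.

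The proportion by which calls were fewer was smaller on chromosome 19 than on chromosome 18. Against shSCR, the mean of the 6 shG9a lists was 56.5% lower on chromosome 19, 65.5% lower on chromosome 18 and 60.9% lower over 23 chromosomes. Without shG9a_1 replicate 1 the values were 47.8%, 58.6% and 53.2%. Members made up 5.31%, 5.03% and 4.92% of the peaks of the shG9a_1 lists, 4.66%, 4.81% and 5.04% of shG9a_4, and 4.201%, 4.27% and 4.88% of shSCR. The shSCR replicate with the high share, replicate 3, also had the shortest shSCR list. The mean share was 4.96 ± 0.22% (SD, n = 6) with the hairpins and 4.45 ± 0.37% (SD, n = 3) in shSCR. The difference of 0.513 percentage points had an exact permutation p of 0.0714, or 0.114 after adjustment, and the ranges overlapped. Among peaks with a −log10 q-value of at least 5 the difference was −0.018 points.

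Within the shSCR lists, members took a larger share of the best peaks than of the weakest. In replicates 1 to 3 they were 4.79%, 5.03% and 5.18% of the 25% of peaks with the lowest q-values. They were 3.84%, 4.38% and 4.82% of the 25% with the highest. The same order held in shG9a_1 replicates 2 and 3, with 6.19% and 5.57% against 5.10% and 4.61%. It also held in shG9a_4 replicates 1 to 3, with 5.16%, 5.23% and 5.66% against 4.53%, 3.97% and 4.89%. In the short list of shG9a_1 replicate 1 it was reversed, with 3.45% against 10.7%. With 8 lists held to their 11168 best peaks, members numbered 557 and 550 in shG9a_1 replicates 2 and 3, 520, 583 and 564 in shG9a_4, and 518, 541 and 545 in shSCR. In that setting the difference in members was 20.1 in favour of the hairpins (exact permutation p = 0.214), and the difference in share was 0.180 percentage points. Lists of equal length cannot show a loss of binding that affects all chromosomes alike.

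**Figure D2:**
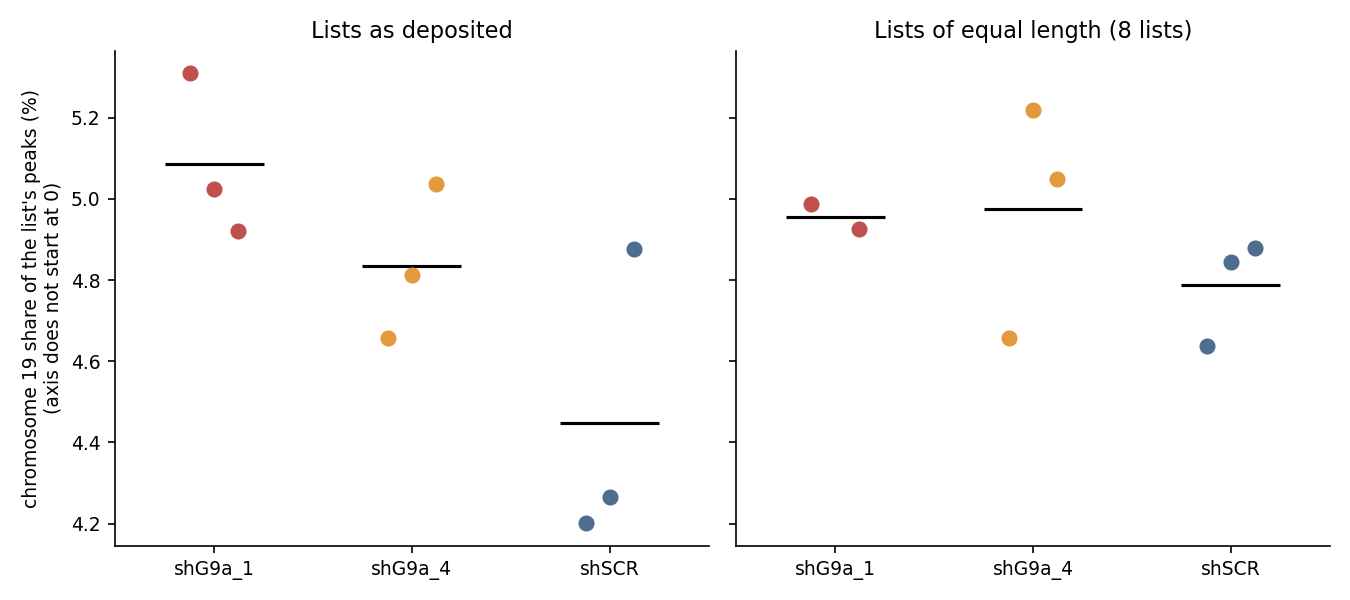
Share of each list's peaks that are chromosome 19 members, in the lists as deposited (left) and in 8 lists held to 11168 peaks (right, without shG9a_1 replicate 1), by hairpin. Points are libraries, lines are means, and the axis does not start at 0; shSCR spans 4.201 to 4.88% on the left and 4.64 to 4.88% on the right.

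Median peak widths on chromosome 19 were lower in the shG9a lists on average, by an amount that depended on which peaks were counted. The medians averaged 216 ± 70.1 bp (SD, n = 6) with the hairpins and 273 ± 26.9 bp (SD, n = 3) in shSCR. The difference of −57.3 bp had an exact permutation p of 0.0714, or 0.114 after adjustment. It was −29.0 bp without shG9a_1 replicate 1. The medians overlapped, since shG9a_4 replicate 2 reached 260.5 bp and shSCR replicate 1 had 257 bp. Among peaks with a −log10 q-value of at least 5 the difference was −74.5 bp, and with a fold of at least 5 it was −69.0 bp, each with an exact permutation p of 0.0238, the smallest possible. With 8 lists of equal length it was −143 bp (exact permutation p = 0.0357, the smallest possible). Holding lists to their best peaks cut the long shSCR lists most. The shSCR mean went from 273 to 402 bp, and that of the 5 shG9a lists from 244 to 258 bp. A difference in that setting cannot be told apart from the cut itself. At like depth the difference was −18.8 bp (exact permutation p = 0.6). These p-values are not adjusted.

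At the level of regions, 636 members (35.04%) were called in 1 library and 5 (0.275%) in all 9, where the background over all chromosomes was 38.8% and 0.252%. On chromosome 18, 341 regions (39.9%) were called in 1 library and 2 in all 9. Regions seen in 1 library came mostly from the long lists: shSCR replicate 2 alone accounted for 337 on chromosome 19 and 184 on chromosome 18. Members called in some shG9a and some shSCR library numbered 951 (52.4%), against 41.4% on chromosome 18 and a background of 46.1%. Members called with shG9a only numbered 79 (4.35%), near the background of 4.55%. Those called with shSCR only numbered 785 (43.3%), with a background of 49.4%. Of the regions called, 380 were common to shG9a_1 replicates 2 and 3, which is 72.4% and 65.3% of their members. Shares were 53.4 to 86.2% between shG9a_4 replicates and 54.4 to 87.0% between shSCR replicates.

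All 3 shSCR libraries called 692 members, which was 14.8 per Mb, against 249 and 3.20 per Mb on chromosome 18. Of these, shG9a_1 replicates 1 to 3 called 0.723%, 61.3% and 67.9%, and shG9a_4 replicates 1 to 3 called 59.1%, 82.8% and 69.8%. Over all chromosomes the same libraries called 0.767%, 57.7% and 64.5%, and 58.3%, 77.3% and 66.3%, of 14209 regions. On chromosome 18 they called 0.803%, 56.2% and 60.2%, and 57.4%, 73.5% and 60.6%. The share was higher on chromosome 19 than on chromosome 18 in 5 of 6 libraries, by 5.46 ± 3.96 percentage points (SD, n = 6). The exact sign-flip permutation p was 0.0625, with 0.0312 the smallest possible, and 0.12 after adjustment. Without shSCR replicate 3 the difference was 10.8 points in 6 of 6 libraries (exact permutation p = 0.0312), and at like shSCR strength it was 3.501 points (p = 0.125, exact permutation). It was 3.01 points with a −log10 q-value of at least 5, 3.17 with a fold of at least 5 and 2.06 with lists of equal length, with exact permutation p of 0.125, 0.125 and 0.312. Against all other chromosomes pooled it was 2.92 points (exact permutation p = 0.0625). By the mean share without shG9a_1 replicate 1, chromosome 19 ranked 3rd of 23 chromosomes and chromosome 18 ranked 22nd.

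Strength was divided into 5 classes of equal size over all chromosomes. In class 1, the weakest, the 5 shG9a libraries other than shG9a_1 replicate 1 called 30.1% of 131 members on average, against 22.1% of 48 regions on chromosome 18 and 27.5% over all chromosomes. Chromosome 19 was above chromosome 18 in 3 of the 5 libraries there and below it in shG9a_1 replicate 2, with 20.6% and 25.0%, and shG9a_4 replicate 1, with 18.3% and 18.8%. The widest gaps were in shG9a_4 replicate 2, with 52.7% and 35.4%, and replicate 3, with 30.5% and 10.4%. In class 2 the mean was 48.7% of 120 members, against 36.4% of 50 on chromosome 18 and 46.4% overall. In both classes chromosome 19 lay nearer to the share over all chromosomes than chromosome 18 did. The shares on chromosomes 19 and 18 were 67.2% and 65.4% in class 3 and 85.7% and 85.5% in class 4. In class 5, the strongest, all 5 libraries called every one of the 151 members, while on chromosome 18 they called 99.1% of 44. The classes on chromosome 18 held 44 to 55 regions each, and no test was made within them.

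**Figure D3:**
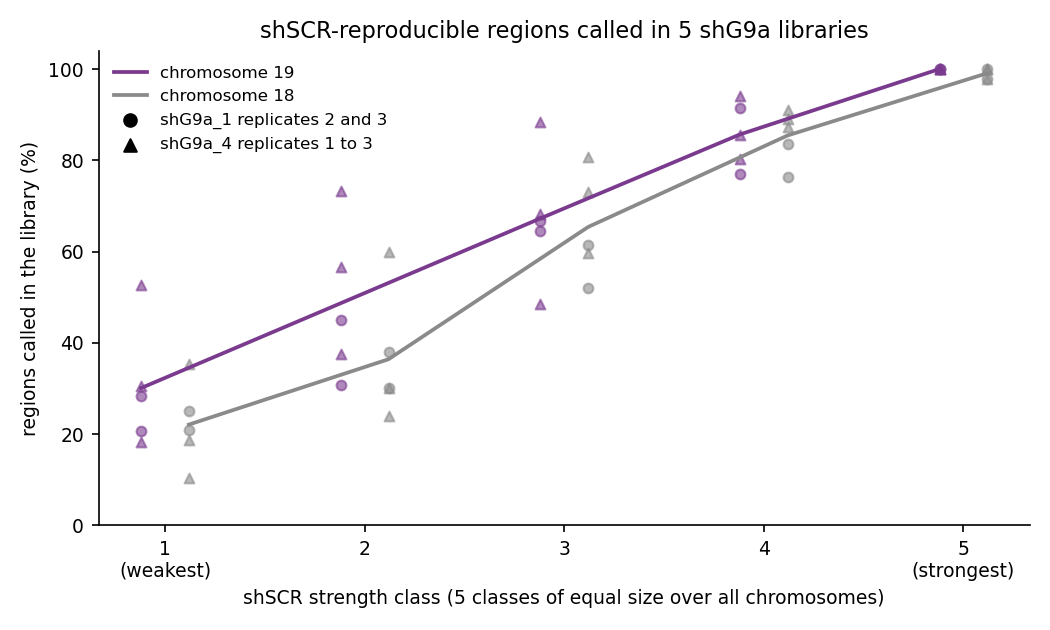
Share of shSCR-reproducible regions called in each of 5 shG9a libraries (points; circles shG9a_1, triangles shG9a_4) by class of shSCR strength, on chromosome 19 (purple) and chromosome 18 (grey), with lines through the means. The means were 30.1% and 22.1% in class 1, where 2 of the 5 libraries were lower on chromosome 19, and 48.7% and 36.4% in class 2, while all chromosomes together (not drawn) had 27.5% and 46.4%.

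A region called in all 3 shSCR lists was counted as lost when no shG9a list held it, and as kept when at least 5 of 6 did. Of 692 members, 48 (6.94%, Wilson 95% interval 5.27 to 9.08%) were lost, where the background over all chromosomes was 9.49%. On chromosome 18, 34 of 249 (13.7%, 9.94 to 18.5%) were lost. Kept members numbered 281 (40.6%, 37.0 to 44.3%), with a background of 36.9%, against 86 (34.5%, 28.9 to 40.6%) on chromosome 18. Of the 692, shG9a_1 replicate 1 called 5, so kept in practice meant a call in every other shG9a list. With that library left out, 377 members were in at least 4 of the 5 other shG9a lists. The share over all chromosomes under that rule is not given. The intervals cover counting error only, and regions of 1 library are not independent. The lost count was 84 of 694 when shG9a_4 replicate 2 was left out. It was 85 of 785 when shSCR replicate 1 was left out and 167 of 944 when shSCR replicate 3 was. Leaving out a shSCR list admits regions which that list did not call, so these counts rest on larger sets. With 8 lists of equal length 1 of 334 was lost. Shares over all chromosomes are not given for these settings.

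Lost members were weaker and narrower than kept ones, on chromosome 19 as on chromosome 18. On chromosome 19 lost members had a median shSCR fold of 5.99 and a median shSCR peak width of 240.5 bp, against 14.2 and 509 bp for kept members. On chromosome 18 the values were 6.35 and 259 bp for lost and 13.8 and 522 bp for kept regions. Per hairpin, 150 members (21.7%) were called in no shG9a_1 list, with a background of 25.3%, and 70 (10.1%) in no shG9a_4 list, with a background of 13.5%. At least 2 of 3 lists called 352 members (50.9%) with shG9a_1, background 47.5%, and 497 (71.8%) with shG9a_4, background 68.8%. There were 26 members in all 3 shG9a_4 lists and no shG9a_1 list (1.43%, background 0.907%). Another 10 were in shG9a_1 replicates 2 and 3 and no shG9a_4 list (0.551%, background 0.396%).

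The strongest lost member was 7934035 to 7934416, with no call in any shG9a library and folds of 9.48, 9.01 and 10.7 in shSCR replicates 1 to 3. Its strength was at the 75.5 percentile, and its fold averaged 9.72 ± 0.85 (SD, n = 3). The next, 18228591 to 18229296, had folds of 7.52, 10.3 and 7.81 in shSCR and was again absent from all shG9a lists. The third, 13274638 to 13274976, had 7.50, 9.13 and 6.98. Folds of the 10 strongest lost members averaged 6.82 to 9.72 in shSCR, and their strengths were at the 49.5 to 75.5 percentiles. The others were 3062420 to 3062938, 16181259 to 16181712, 7701849 to 7702085, 35614527 to 35614762, 48103766 to 48104016, 34664203 to 34664693 and 46802221 to 46802700. The strongest lost region on chromosome 18, 45471885 to 45472230, had shSCR folds of 15.2, 12.9 and 7.90, and the next 2 lay at 60829063 to 60829353 and 21850763 to 21851222.

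The strongest member of all was 1863386 to 1865091, 1706 bp wide and called in all 9 libraries. It ranked 19th of 14209 regions by shSCR strength. Its pileup over background, the ChIP fragments at the summit divided by the library's lowest common background, was 47.2, 132 and 154 in shG9a_1 replicates 1 to 3. It was 100, 185 and 107 in shG9a_4 and 216, 269 and 244 in shSCR, so the shG9a libraries lay below all 3 shSCR libraries. The authors' folds were 11.6, 28.3 and 50.6 in shG9a_1, 38.4, 41.0 and 34.2 in shG9a_4, and 30.3, 66.6 and 66.5 in shSCR, which overlapped. Folds compare peaks within a list, so this overlap between libraries does not show the absence of a difference.

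The second, 45582118 to 45582781, had folds of 23.8 and 23.4 in shG9a_1 replicates 2 and 3, 17.4, 33.2 and 36.0 in shG9a_4, and 36.5, 51.1 and 42.2 in shSCR. The third, 6279943 to 6280447, was the narrowest of the 10 strongest, at 505 bp. Its folds were 24.2 and 28.7 in shG9a_1 replicates 2 and 3, 19.4, 36.6 and 24.5 in shG9a_4, and 51.1, 51.6 and 40.2 in shSCR. In both the shG9a folds lay below all 3 shSCR folds, but folds overlapped in 6 of the 10 strongest. As a fold compares peaks within a list, its order or overlap between libraries shows neither a difference nor the absence of one. Pileup over background overlapped in 2 of the 10. The fourth, 42363586 to 42364882, held the highest single fold on the chromosome, 67.0 in shSCR replicate 2, yet shG9a_4 replicate 2 at 42.5 was above shSCR replicate 3 at 35.8. The others were 2783227 to 2783767, 5790517 to 5791379, 41168678 to 41169283, 30432510 to 30433952, 10216857 to 10217560 and 5719956 to 5720921. The 10 had mean shSCR folds of 30.4 to 54.5. Regions 1, 4, 5, 6 and 8 in this order were the 5 members that shG9a_1 replicate 1 also called. On chromosome 18 the strongest kept region, 12947283 to 12949074, had a mean shSCR fold of 40.2 ± 12.1 (SD, n = 3), followed by 22006350 to 22007526 and 23806096 to 23807209. These regions were ranked on the shSCR lists, which favours high shSCR values.

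Kept members were called but not equally high. Their median pileup over background was 35.1 and 37.5 in shG9a_1 replicates 2 and 3, 22.5, 41.7 and 23.3 in shG9a_4, and 53.3, 63.3 and 48.8 in shSCR. The highest shG9a library lay below the lowest shSCR library. The means were 32.0 ± 8.65 (SD, n = 5) with the hairpins and 55.1 ± 7.41 (SD, n = 3) in shSCR, with an exact permutation p of 0.0357, the smallest possible, and 0.114 after adjustment over 8. When libraries were permuted only within replicate numbers, the exact permutation p was 0.111, the smallest possible there. The deepest of these libraries, shG9a_4 replicates 1 and 3 at 1.90 and 2.63 times the shSCR depth, had the lowest values, and the part of depth in the result was not tested. At like depth, shG9a_1 replicate 3 and shG9a_4 replicate 2 were set against shSCR over the 435 regions kept by that choice of lists, and the difference was −12.8, in a design that allows no p under 0.2. The same medians on chromosome 18 were 35.1 and 34.4 in shG9a_1 replicates 2 and 3, 22.5, 41.7 and 21.8 in shG9a_4, and 53.3, 65.3 and 47.6 in shSCR.

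All 281 kept members had a lower mean pileup over background in the 5 shG9a libraries than in shSCR, against 85 of 86 on chromosome 18 and 99.7% of 5245 overall. Every shG9a library lay below every shSCR library at 146 of them (52.0%), where the background was 56%, and at 55 of 86 on chromosome 18. The median ratio of the means was 0.569 on chromosome 19 and 0.568 on chromosome 18. Over all chromosomes it was 0.561. The best summit of a kept region varied over a median range of 108 bp between 8 libraries on chromosome 19 and 108.5 bp on chromosome 18.

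A region was counted as gained when no shSCR list held it and 2 or 3 lists of each hairpin did. Of 4 such regions in all, a background of 0.00925%, 2 were members. The first, 18497482 to 18497880, had folds of 6.21 and 6.41 in shG9a_1 replicates 2 and 3 and 8.20 and 4.62 in shG9a_4 replicates 2 and 3. Its q-value put it at the 70.5 percentile of the list of shG9a_4 replicate 2 and at the 8.18 percentile of replicate 3. The second, 55728327 to 55728599, had folds of 5.84 and 6.85 in shG9a_1 replicates 2 and 3 and 5.08 and 4.01 in shG9a_4 replicates 1 and 3. It stood at the 2.55 to 50.7 percentiles of those lists. Both were weak calls in part of the libraries. The count was 0 when shG9a_4 replicate 3 was left out, and 1 when shG9a_4 replicate 1 or 2 was. It was 0 among peaks with a −log10 q-value or a fold of at least 5. Leaving out shG9a_1 replicate 2 or 3 also gave 0. The rule then needed a call by shG9a_1 replicate 1, whose 5 member regions were all in the shSCR lists, so that outcome was fixed in advance.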

How the data were processed

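MYC ChIP-seq peak lists of 9 libraries were analysed, 1 list per library, from reads of 50 bp, per the labels' protocols. MACS2 2.1.0, Picard 2.7.1, STAR 2.5.2a and SAMtools 1.3, with hg19 and GRCh37 as builds, are listed in the submitters' processing notes, with no roles. The sources used here give no caller settings. For each peak the authors deposited a score (10 times the −log10 q-value, decimals dropped), a fold (ChIP pileup against local background at the summit), a −log10 p-value and a −log10 q-value. The last was adjusted within its list, where the highest listed q-value was 0.05. Peaks were called per library, as the deposited peak names show.

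Computed here (Python 3.11.15, scipy 1.17.1): 192 of 151062 peaks off chromosomes 1 to 22 and X were left out, members were picked by summit, and overlapping peaks were merged. A library called a region when its list had a peak in it. Whole-number pileups were recovered from fold and p for a Poisson caller, within 0.001 on the −log10 p scale for all but 4 peaks. The fold was taken there as pileup plus 1 divided by local background plus 1, so it differs from pileup over background. Relative depth is the lowest background shared by at least 1% of peaks divided by the shortest peak. Read depth is not listed. Pileup at kept regions used 8 lists, without shG9a_1 replicate 1. Exact tests permuted libraries or flipped signs within them, two-sided. The steps were tested on simulated data. Regions are named by strength (10 kept, 10 lost), width (5) or gain, with 3 kept and 3 lost on chromosome 18. The members, rules and lists were chosen with earlier results of these data known. The gene list planned for an hg19 annotation was not used. As alternatives, q-value and fold limits were raised, lists were held to equal length or like depth, merging, windows and comparison chromosomes were varied, replicate numbers were blocked and each library was left out.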

Additional observations from a re-analysis of the deposited data

Results flagged for a closer look

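The log2 ratio of peak density on chromosome 19 to that on chromosome 18 was larger in the shG9a libraries than in shSCR, a comparison added after the data were seen. It averaged 2.27 ± 0.10 (SD, n = 6) with the hairpins and 1.95 ± 0.19 (SD, n = 3) in shSCR. The difference was 0.32 on the log2 scale, with a two-sided exact permutation p of 0.0476, or 0.114 after Benjamini-Hochberg adjustment over 8 comparisons. Without shG9a_1 replicate 1, whose ratio rested on 6 and 2 peaks, the difference was 0.31 (exact permutation p = 0.0714). The groups overlapped: shG9a_4 replicate 1 had a ratio of 4.38 and shSCR replicate 3 had 4.52. It was −0.14 among peaks with a −log10 q-value of at least 5 and 0.12 in lists of equal length. The share of peaks on chromosome 18, the denominator, was itself lower with the hairpins, at 1.71 ± 0.08% (SD, n = 6), against 1.91 ± 0.10% (SD, n = 3) in shSCR. That difference of −0.197 percentage points had an exact permutation p of 0.0238, the smallest possible and not among the 8 adjusted, while the difference in the chromosome 19 share, 0.513 points, had 0.0714. The longest lists, shSCR replicates 1 and 2, had the lowest ratios, 3.56 and 3.62, and the part of list length in the result was not tested.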

How the results depend on the processing

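With lists of equal length, differences in member peaks from shSCR reversed to 20.1 (both hairpins), 18.8 (shG9a_1) and 21.0 (shG9a_4). In that setting 334 members were in all 3 shSCR lists and 1 was lost, the width differences were −143 bp against shSCR and 20.0 bp against chromosome 18, the log2 density ratio differed by 0.12 and the log2 fold by 0.051. With a −log10 q-value of at least 5, the difference in share was −0.018 points, in log2 density ratio −0.14, in log2 fold 0.13 and in width against shSCR −74.5 bp, and 0 regions were gained. With a fold of at least 5 these were 0.16 for the density ratio, −69.0 bp against shSCR and 16.9 bp against chromosome 18, with 0 gained. At like depth the values were −497 peaks, 0.32 for the density ratio between groups, 2.08 for density between chromosomes, 0.056 for log2 fold and −12.8 for pileup. Of 697 members in all 3 shSCR lists, 83 were lost and 435 kept at like depth. Shares over all chromosomes are not given for the counts in these settings. Against all other chromosomes pooled, the values were 0.016 for log2 fold, 12.6 bp for width and 0.17 for the density ratio. With mean log2 folds the fold difference was 0.0054. The cause was not tested, except that fewer libraries raise the smallest p at like depth.

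Leaving out 1 library gave −828 to −578 peaks (both hairpins), −66.3 to −29.0 bp against shSCR, 0.26 to 0.43 for the density ratio and −0.034 to 0.053 for log2 fold. It gave 11.4 to 20.6 bp against chromosome 18, 4.61 to 10.8 points for regions called and −26.5 to −18.8 for pileup. Lost regions ranged from 48 of 692 to 167 of 944, and 0 to 2 were gained. For these counts too, shares over all chromosomes are not given. Under the replicate block the difference of −699 peaks had an exact permutation p of 0.0741 and that of −23.1 in pileup 0.111, each the smallest possible there. The differences of 0.513 points in share and −57.3 bp in width against shSCR had an exact permutation p of 0.0741 each, also the smallest possible under the block. Same-numbered libraries correlated at −0.085 to 0.171 and differently numbered ones at −0.167 to 0.0761, and 8 of 9 correlated best with their own number. The labels do not name the numbers as pairs, and the p-values outside the replicate block take no account of them. An effect shared by libraries of 1 number was not excluded. Of 244 alternative values, 182 kept their direction and their side of the threshold, or stayed within 1.5 times for a count. Part of the 182 was fixed in advance. A single hairpin against shSCR allows no p under 0.1, and leaving out a library that a comparison does not use repeats its value. The tally is therefore no measure of how robust the results are. Read depth is not listed, so a region missing from a list may be bound below its threshold.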
